A study of Mus musculus with 36 samples.

Results

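The 10 genes Cd68, Lyz2, Csf1r, Clec4f, Cd5l, Marco, Vsig4, Timd4, Cd163 and Mrc1, all markers of macrophages and most of them of the Kupffer cells of the liver, were followed in whole liver and whole kidney of mice on 3 diets. They were chosen by gene symbol, and all 10 were found in both gene tables, among 33495 liver and 37991 kidney genes. The mice were male C57BL/6 NIA animals of 12 months. After habituation to the control diet they stayed on it or were moved for 1 week to a high-fat or a ketogenic diet, and tissue was taken at night. By energy and by the sample labels, the control diet held 10% protein, 12% fat and 78% carbohydrate, the high-fat diet 10% protein, 75% fat and 10% carbohydrate, and the ketogenic diet 10% protein and 90% fat. The series description gives all diets 10% of energy from carbohydrate instead, and the sample labels are followed here. Of the 18 libraries of a tissue, 5 were from the control diet, 6 from the high-fat and 7 from the ketogenic diet, and they are numbered from 0 as in their titles. No transgene, mutation or sorting is named in the labels, so every value is that of a whole tissue, in which fewer macrophages and less of a transcript per macrophage cannot be told apart.

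Kupffer cells are the macrophages that live in the liver sinusoids, where they take up particles, dying cells, aged red cells and modified lipoproteins from the blood. Their survival depends on signalling through the receptor encoded by Csf1r, and in mouse they are set apart from other macrophages by the lectin Clec4f, the complement receptor Vsig4, the apoptotic-cell receptor Timd4 and the secreted lipid regulator Cd5l. Kidney macrophages carry the general genes of the lineage but are not known for this set. Cd68, a lysosomal glycoprotein, and Lyz2, the lysozyme of macrophages and neutrophils, mark the lineage broadly. Marco, Cd163 and Mrc1 encode scavenging receptors for bacteria and modified proteins, for haemoglobin bound to haptoglobin, and for mannose-rich glycoproteins. In liver, Mrc1 is also made by sinusoidal endothelium.

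The promoter windows of 3 members with different distributions over the tissues are printed first: Cd68 was read in both tissues, while Vsig4 and Clec4f were read almost wholly in liver. Each is the 250 bases before the annotated start, 5′ to 3′ on the gene's own strand, from RefSeq on GRCm38.p6: Cd68 at chr11:69666171-69666420, Vsig4 at chrX:96293439-96293688 and Clec4f at chr6:83656117-83656366, all 3 on the minus strand. Capitals mark the letters GAGGAA, a core bound by PU.1, the lineage factor of macrophages, and TGANTCA, the element of AP-1, each searched on both strands.
Cd68: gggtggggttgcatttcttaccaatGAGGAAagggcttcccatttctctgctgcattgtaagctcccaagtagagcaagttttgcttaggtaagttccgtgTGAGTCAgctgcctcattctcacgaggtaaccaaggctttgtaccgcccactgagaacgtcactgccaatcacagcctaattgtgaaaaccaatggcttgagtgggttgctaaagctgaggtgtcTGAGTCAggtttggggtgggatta
Vsig4: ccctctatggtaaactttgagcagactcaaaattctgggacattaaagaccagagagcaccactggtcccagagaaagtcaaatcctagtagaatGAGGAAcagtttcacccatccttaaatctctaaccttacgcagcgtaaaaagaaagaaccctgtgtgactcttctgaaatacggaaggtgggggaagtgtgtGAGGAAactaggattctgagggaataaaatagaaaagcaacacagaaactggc
Clec4f: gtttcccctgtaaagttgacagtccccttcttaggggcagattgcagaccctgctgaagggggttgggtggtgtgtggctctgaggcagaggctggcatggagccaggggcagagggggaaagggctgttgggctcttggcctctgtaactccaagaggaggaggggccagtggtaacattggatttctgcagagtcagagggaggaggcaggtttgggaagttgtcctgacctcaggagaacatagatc
Cd68 held 1 GAGGAA, at -225 from the start, and 2 TGANTCA, at -149 and -24. Vsig4 held 2 GAGGAA, at -155 and -53, and no TGANTCA. Clec4f held neither in this window. GAGGAA occurred in 5 of the 9 members searched (Cd68, Cd5l, Marco, Vsig4 and Mrc1) against 23.25% of 32851 RefSeq windows of the same length, and TGANTCA in 1 of 9, Cd68, against 6.749%. A match describes the letters and not binding, and no methylation or binding was measured here.

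Lyz2 lies beside a similar copy, Lyz1, so the promoters of both are shown, with the longest run of identical letters in capitals. Lyz2 is at chr10:117282273-117282522 and Lyz1 at chr10:117292869-117293118, both on the minus strand of GRCm38.p6.
Lyz2: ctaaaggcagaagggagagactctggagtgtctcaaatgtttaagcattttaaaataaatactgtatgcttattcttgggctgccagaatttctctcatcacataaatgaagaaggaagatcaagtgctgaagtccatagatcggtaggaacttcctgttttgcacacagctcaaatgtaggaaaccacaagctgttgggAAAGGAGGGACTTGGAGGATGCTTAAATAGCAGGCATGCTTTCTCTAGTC
Lyz1: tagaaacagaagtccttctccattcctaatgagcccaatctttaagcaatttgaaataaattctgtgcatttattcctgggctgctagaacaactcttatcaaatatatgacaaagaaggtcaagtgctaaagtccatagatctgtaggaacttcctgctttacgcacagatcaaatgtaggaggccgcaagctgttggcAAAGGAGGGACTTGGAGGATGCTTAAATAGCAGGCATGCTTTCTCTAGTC
The last 50 bases before the start were identical in both, and 205 of 260 aligned columns (78.85%) matched over the windows. Their transcripts matched in 91.95% of aligned columns, and 195 of the 1267 windows of 50 bases in the Lyz2 transcript (15.39%) also occurred in Lyz1. Reads from those stretches could be given to either copy or lost, so Lyz2 levels are uncertain to that extent. Of the other members, Cd163 shared 0.09103% of its windows with other genes and 8 shared none.

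Liver libraries held 18.9 to 35.9 M counts and kidney libraries 25.4 to 47.0 M. Mitochondrial genes took 49.7 to 71.7% of liver counts and 68.3 to 79.7% of kidney counts, which left 7.17 to 14.6 M and 6.48 to 11.9 M nuclear counts. Levels are CPM, counts divided by the library's total in M after scaling with a trimmed mean of M values (TMM) factor. No pair of libraries of one diet agreed within counting noise. One liver library stood apart in these genes, control replicate 0, which had the lowest mitochondrial share of the 18 (49.7%), and the changes from control in liver are given with and without it. It was the highest of 18 libraries for Cd68, Cd5l, Lyz2, Mrc1 and Csf1r, at 3.40, 3.34, 2.42, 1.73 and 1.45 times the median of the other 17, and the lowest for Cd163, at 0.356 times. Of the markers most particular to Kupffer cells, Cd5l was thus high there, while Clec4f, Vsig4 and Timd4 stood at 1.09, 0.939 and 0.883 times the median and ranks 6, 11 and 11. The summed level of 12 other Kupffer genes was also the highest of 18 there, at 280.6 CPM against a median of 149, or 1.88 times. The list of 18 other macrophage genes also holds genes of leukocytes in general, such as Ptprc, Cd52 and Cd53. Its summed level was 2.99 times the median of the other libraries. It was 3.68 times for 11 dendritic cell and antigen-presentation genes, 2.66 times for 9 neutrophil genes and 2.06 times for 9 monocyte genes. A list of 7 adipocyte genes, 3 of them tested in liver, was the lowest of 18 there, at 0.426 times. Its sum ran from 743 to 2566 CPM over the liver libraries and from 4.92 to 45 CPM over the kidney libraries. Whether adipocytes made the liver sum was not tested. Hepatocyte genes stood at 1.09 times. The part of these other cell types, or of the low mitochondrial share, in the results was not tested.

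All 10 genes were read in every liver library, while 5 of them were nearly absent from kidney. Over 18 liver libraries Clec4f gave 11745 counts, Cd5l 12788, Vsig4 10965, Timd4 2257 and Marco 1807. Over 18 kidney libraries the same genes gave 5, 8, 10, 40 and 4 counts. No kidney control library held a single count of Clec4f, Cd5l or Marco. Of the few kidney counts, high-fat replicate 1 held 3 of the 5 for Clec4f, 2 of the 8 for Cd5l and 2 of the 4 for Marco. That library was also the highest of the 18 kidney libraries for 4 of 7 hepatocyte genes: Alb at 15.35 CPM (next 9.03), Apoa1 at 1.98 (next 0.790), Cps1 at 0.565 (next 0.278) and Tat at 0.162 (next 0.119). The other 3, Apob, Ttr and Serpina1c, ranked 9, 11 and 10 there. The part of hepatocyte genes in these few counts was not tested. In kidney these 5 genes did not pass the filter on low counts and were not tested. The other 5, Cd68, Lyz2, Csf1r, Mrc1 and Cd163, were read in all 18 kidney libraries, with 1101, 10999, 5497, 1316 and 231 counts. In the liver table, whose build is mm9, the genes span Cd68 at chr11:69477715-69479655 (minus strand), Lyz2 at chr10:116714390-116719343 (minus strand), Csf1r at chr18:61265226-61290791 (plus strand), Clec4f at chr6:83594536-83606181 (minus strand), Cd5l at chr3:87161803-87174994 (plus strand). The others span Marco at chr1:122371115-122401661 (minus strand), Vsig4 at chrX:93442542-93488777 (minus strand), Timd4 at chr11:46624302-46657834 (plus strand), Cd163 at chr6:124254674-124280545 (plus strand) and Mrc1 at chr2:14151041-14253684 (plus strand).

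**Figure D1:**
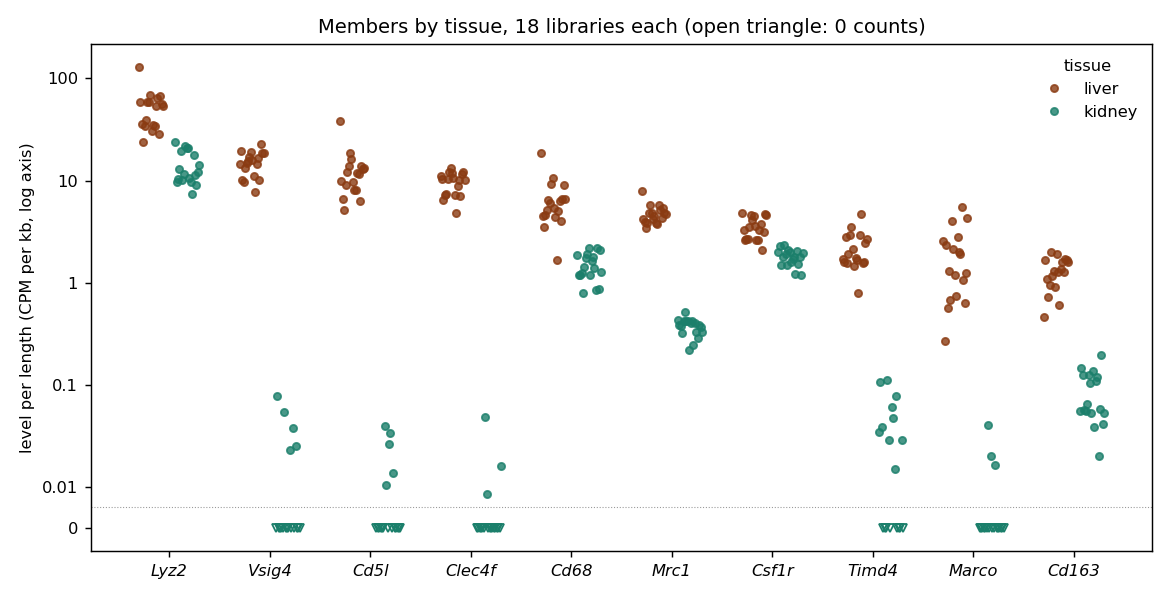
Level per length (CPM per kb, log axis) of each gene in the 18 liver and 18 kidney libraries, 1 point per library, with open triangles for libraries at 0 counts. Lyz2 leads in both tissues, and Vsig4, Cd5l, Clec4f, Timd4 and Marco fall to 0 in most kidney libraries or in 8 of 18 for Timd4.

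Per length, the order in liver ran from Lyz2 (51.7 ± 24.1 CPM per kb, SD, n = 18) through Vsig4 (15.0 ± 4.06), Cd5l (12.6 ± 7.38), Clec4f (9.59 ± 2.38), Cd68 (6.55 ± 3.69), Mrc1 (4.72 ± 1.03), Csf1r (3.51 ± 0.872), Timd4 (2.21 ± 0.932) and Marco (1.96 ± 1.45) to Cd163 (1.29 ± 0.443). Lyz2 stood above Vsig4 in all 18 libraries, Clec4f above Cd68 in 17, Mrc1 above Csf1r in 17 and Csf1r above Timd4 in 16. Vsig4 exceeded Cd5l in 15, Cd5l exceeded Clec4f in 14 and Cd68 exceeded Mrc1 in 14. The ranges of mean ± SD overlapped at every step below Lyz2. The order of Timd4, Marco and Cd163 was not fixed: Timd4 exceeded Marco in 12 of 18 libraries and Marco exceeded Cd163 in 11. In kidney, Lyz2 again led (14.1 ± 5.20 CPM per kb), followed by Csf1r (1.79 ± 0.324), Cd68 (1.499 ± 0.458), Mrc1 (0.373 ± 0.0721) and Cd163 (0.0868 ± 0.0473). Csf1r exceeded Cd68 in 13 of 18 kidney libraries, and every other step among these 5 held in 18 of 18. Cd68 thus stood above Csf1r per length in liver and below it in kidney, although the 2 tables give Csf1r different lengths, 3909 bases for liver and 5229 for kidney. The tables were made separately, so levels are set side by side and not tested between tissues.

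The spread among liver libraries differed by gene. Marco ranged 20.2-fold from the lowest to the highest library, Cd68 11.2-fold, Cd5l 7.42-fold, Timd4 5.94-fold, Lyz2 5.37-fold and Cd163 4.33-fold. Vsig4, Clec4f, Mrc1 and Csf1r stayed within 2.98-, 2.72-, 2.30- and 2.29-fold. The lowest Marco value, 0.540 CPM in control replicate 1, rested on 9 counts, and the highest, 10.9 CPM in ketogenic replicate 2, on 208. In kidney, Csf1r ranged 1.95-fold, Mrc1 2.35-fold, Cd68 2.76-fold, Lyz2 3.24-fold and Cd163 9.66-fold, the last from 3 to 25 counts a library.

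None of the 10 genes was called between diets in liver. Across the 13374 genes tested, edgeR's quasi-likelihood test with Benjamini-Hochberg adjustment called 0 genes (0%) in each of the 3 comparisons, so the 0 members called are the same as the background. At an unadjusted p under 0.05 it passed 0 members, against 1255, 950 and 426 of all genes for ketogenic against control, high-fat against control and ketogenic against high-fat. DESeq2 also called 0 members and passed 0 unadjusted, against 10.3%, 8.08% and 3.68% of all genes in the same order. By limma-voom 0 were called and Cd163 alone passed, in both comparisons with control. There 9.03% of all genes passed on the ketogenic and 7.22% on the high-fat diet. The ranges of every pair of diets overlapped for every member. No share of all genes with overlapping ranges is given beside this, so it is no result about the members.

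The general markers came first. Cd68 stood at 23.2, 5.70, 4.43, 5.85 and 6.45 CPM in control replicates 0 to 4. The high-fat libraries ran from 5.56 to 13.45 with a median of 7.77 CPM, and the ketogenic from 2.08 to 11.3 with a median of 7.95. A single control library was higher than every library on the other diets, while the other 4 controls lay at or below 6.45 CPM, under 5 of 6 high-fat libraries. The log2 change was -0.37 ± 0.39 (SE; 95% interval -1.19 to 0.45) on the ketogenic and -0.05 ± 0.41 (-0.89 to 0.80) on the high-fat diet. Without control replicate 0 both changed sign, to 0.33 ± 0.31 and 0.66 ± 0.32, and neither was called (adjusted p = 0.90 and 0.75, edgeR).

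Lyz2 was at 165, 75.1, 45.6, 30.7 and 43.4 CPM in the controls, at 39.3 to 88.0 (median 62.5) on the high-fat and at 36.3 to 85.0 (median 69.0) on the ketogenic diet. Control replicate 0 lay above, and control replicate 3 below, every library of the other diets. Its log2 change was -0.14 ± 0.34 on the ketogenic diet and -0.21 ± 0.35 on the high-fat diet, and 0.43 ± 0.27 and 0.35 ± 0.27 without that library. Csf1r, the receptor for the growth factors of the lineage, was at 18.8, 12.7, 10.1, 10.55 and 10.6 CPM in the controls, 10.25 to 18.1 (median 15.1) on the high-fat and 8.19 to 18.3 (median 12.95) on the ketogenic diet. Control replicate 0 was the highest of all 18, and the other 4 controls lay inside the range of the ketogenic libraries. The log2 change of Csf1r was 0.26 ± 0.21 on the high-fat diet (95% interval -0.18 to 0.69) and 0.10 ± 0.20 on the ketogenic diet (-0.32 to 0.52). These were 0.45 ± 0.20 (0.04 to 0.86) and 0.30 ± 0.19 (-0.10 to 0.70) without control replicate 0, with adjusted p = 0.70 and 0.81 by edgeR.

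The genes most particular to Kupffer cells came next. Clec4f read 27.6, 25.7, 15.98, 17.8 and 18.1 CPM in the controls, 17.7 to 32.5 (median 27.7) on the high-fat diet and 11.9 to 30.3 (median 24.97) on the ketogenic diet. The 5 highest of the 6 high-fat libraries exceeded the mean of the controls, 21.03 CPM, and one lay below it. The log2 change was 0.35 ± 0.21 (95% interval -0.08 to 0.79) on the high-fat diet, the largest of this gene's 3 comparisons, and 0.12 ± 0.20 (-0.29 to 0.54) on the ketogenic diet. It was 0.48 ± 0.21 (0.04 to 0.91) and 0.24 ± 0.20 (-0.18 to 0.67) without control replicate 0, with adjusted p = 0.70 and 0.87 by edgeR. Vsig4 read 21.7, 29.1, 15.05, 14.4 and 19.7 CPM in the controls, 16.5 to 28.0 (median 23.4) and 11.4 to 34.0 (median 24.7) on the high-fat and ketogenic diets, with log2 changes of 0.21 ± 0.23 (-0.26 to 0.69) and 0.22 ± 0.22 (-0.24 to 0.68). Without control replicate 0 the changes of Vsig4 were 0.25 ± 0.25 (-0.27 to 0.77) and 0.25 ± 0.24 (-0.25 to 0.76). A doubling of either gene, 1 on this scale, lay outside the intervals of both genes on both diets, with and without that library.

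Timd4 was low and broad, at 3.70, 3.48, 6.14, 3.40 and 4.19 CPM in the controls, 3.14 to 7.58 (median 4.19) on the high-fat and 1.73 to 10.3 (median 5.34) on the ketogenic diet. The ketogenic group held both the lowest and the highest of the 18 values. Its log2 change was 0.31 ± 0.32 on the ketogenic diet, and 0.04 ± 0.30 without ketogenic replicate 2, its highest library. With control replicate 0 left out it was 0.27 ± 0.35 on the ketogenic and 0.16 ± 0.36 on the high-fat diet.

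Cd5l gave the plainest case of one library setting a mean. The controls read 78.2, 19.98, 13.4, 10.55 and 18.5 CPM, the high-fat libraries 16.6 to 38.3 (median 26.5) and the ketogenic libraries 12.9 to 28.4 (median 24.3). The control mean was 28.1 ± 28.3 CPM (SD, n = 5), and 15.6 ± 4.39 (n = 4) without replicate 0. The log2 changes of -0.31 ± 0.39 on the ketogenic and -0.07 ± 0.40 on the high-fat diet turned to 0.55 ± 0.24 and 0.78 ± 0.25 without it, with adjusted p = 0.59 and 0.62 by edgeR. With that library left out, 2 members passed an unadjusted p under 0.05 (edgeR) on the ketogenic diet, Cd5l and Mrc1, against 7.62% of all genes tested. On the high-fat diet 4 passed, Cd5l, Clec4f, Csf1r and Mrc1, against 6.73%. All were higher than control, and 0 members were called. That library was set apart by its high values of members, so leaving it out raises their changes by construction. These counts are therefore no support for a diet difference.

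The scavenging receptors differed among themselves. Cd163 had the smallest p of the 10, reading 2.07, 7.56, 4.86, 3.29 and 4.22 CPM in the controls, 4.12 to 8.98 (median 5.77) on the high-fat and 2.73 to 7.69 (median 7.10) on the ketogenic diet. Of the ketogenic libraries 6 of 7, and of the high-fat 5 of 6, exceeded the control mean of 4.40 CPM. The log2 change was 0.56 ± 0.29 on the high-fat diet (95% interval -0.04 to 1.15, unadjusted p = 0.067, adjusted p = 0.70 by edgeR) and 0.53 ± 0.28 on the ketogenic diet (-0.05 to 1.12, unadjusted p = 0.070, adjusted p = 0.58 by edgeR). Both comparisons use the same controls, among which replicate 0 was the lowest library of 18. Without it the changes were 0.38 ± 0.27 and 0.36 ± 0.26, and without control replicate 1, the highest control, 0.81 and 0.78.

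Mrc1 was the steadiest scavenging receptor, at 46.7, 25.1, 23.1, 20.35 and 22.7 CPM in the controls, 23.0 to 33.9 (median 27.75) on the high-fat and 22.4 to 34.0 (median 28.4) on the ketogenic diet. Its log2 change was 0.00 ± 0.18 on the high-fat and 0.06 ± 0.17 on the ketogenic diet, and 0.28 ± 0.13 and 0.34 ± 0.13 without control replicate 0. Marco was at 5.13, 0.540, 4.65, 1.13 and 2.60 CPM in the controls, 1.34 to 7.95 (median 3.28) on the high-fat and 1.25 to 10.9 (median 3.83) on the ketogenic diet. Each diet spanned at least a 5-fold range for this gene, and its log2 change on the ketogenic diet, 0.73 ± 0.59, had a 95% interval from -0.50 to 1.97 and stood at 0.37 ± 0.57 without ketogenic replicate 2. The change was 1.06 ± 0.68 on the ketogenic and 0.74 ± 0.69 on the high-fat diet without control replicate 0.

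**Figure D2:**
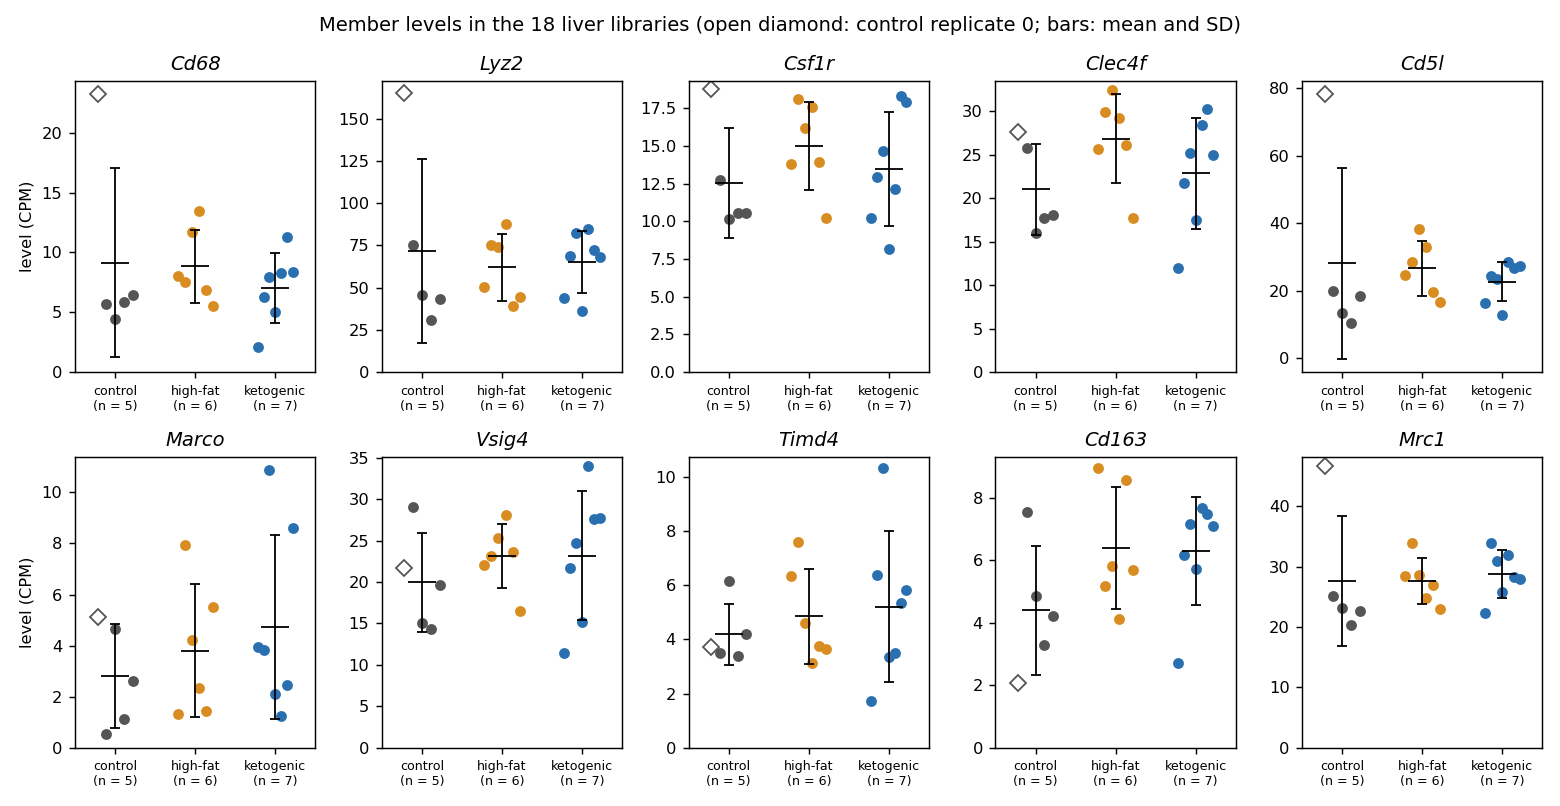
Level in CPM of the 10 genes in each liver library by diet (5 control, 6 high-fat, 7 ketogenic), with the mean and SD of each diet as bars and control replicate 0 as an open diamond. The diamond is the highest control in Cd68 (23.2 CPM), Lyz2 (165), Csf1r (18.8), Clec4f (27.6), Cd5l (78.2), Marco (5.13) and Mrc1 (46.7), and the lowest in Cd163 (2.07).

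Between the ketogenic and high-fat diets, which do not involve the controls, the median log2 change of the 10 members in liver was -0.01, beside 0.01 for all genes tested. The changes ran from -0.33 ± 0.37 for Cd68 to 0.32 ± 0.55 for Marco. Against control, the median of the members was 0.11 on the ketogenic and 0.21 on the high-fat diet, beside -0.02 and -0.02 for all genes. Without control replicate 0 these medians were 0.34 and 0.42, beside 0.00 and -0.01 for all genes. All 10 members were then above 0 on both diets. That library was set apart by its high values of members, so this shift follows in part from leaving it out. Both comparisons share the 4 controls that remain, so the second set of values is not a repeat of the first.

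In kidney none of the 5 members tested was called between diets either. Of 15074 genes tested, edgeR called 49 (0.325%) between ketogenic and control, 2 (0.0133%) between high-fat and control and 7 (0.0464%) between ketogenic and high-fat, and 0 of the 5 members in each. With all libraries, none passed an unadjusted p under 0.05, by edgeR, DESeq2 or limma-voom, against 1259, 864 and 613 of all genes by edgeR. Csf1r had the smallest p, at 10.4, 11.8, 7.82, 9.37 and 12.2 CPM in the controls, 7.88 to 10.98 (median 9.43) on the high-fat and 6.27 to 10.8 (median 9.37) on the ketogenic diet. One of 7 ketogenic libraries exceeded the control mean of 10.3 CPM. The log2 change was -0.26 ± 0.14 (95% interval -0.55 to 0.03, unadjusted p = 0.081, adjusted p = 0.66, edgeR). With single libraries left out it ran from -0.36 to -0.20. An unadjusted p under 0.05 (edgeR) was reached without control replicate 2, ketogenic replicate 2 or ketogenic replicate 6. Of all genes, 9.72%, 9.25% and 9.60% then passed, and Csf1r was not called.

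Lyz2 in kidney read 31.5, 12.65, 13.5, 16.9 and 25.4 CPM in the controls, 13.15 to 28.5 (median 21.1) on the high-fat and 9.73 to 23.2 (median 14.8) on the ketogenic diet. Again 1 of 7 ketogenic libraries exceeded the control mean, and the log2 change was -0.39 ± 0.28 (-0.98 to 0.20). Control replicate 0 was the highest of the 18 kidney libraries for Lyz2, and without it the change was -0.17. Cd68 read 2.36, 1.502, 1.51, 1.58 and 1.01 CPM in the controls and 1.495 to 2.78 (median 2.15) on the high-fat diet, a log2 change of 0.40 ± 0.25 (-0.11 to 0.92). On the ketogenic diet it read 1.06 to 2.78 (median 1.74), a change of 0.23 ± 0.24. Without control replicate 0, its highest control, the changes of Cd68 were 0.58 on the high-fat and 0.40 on the ketogenic diet. The first then had an unadjusted p of 0.034 (edgeR), where 4.45% of all genes were under 0.05, and neither was called.

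Mrc1 in kidney read 2.57, 2.31, 2.24, 1.92 and 2.52 CPM in the controls, 1.31 to 3.07 (median 2.503) and 1.46 to 2.39 (median 1.98) on the high-fat and ketogenic diets, with a log2 change of -0.21 ± 0.18 on the ketogenic diet. Cd163 stayed at or below 0.881 CPM in every kidney library, and its changes of -0.05 ± 0.44 and -0.01 ± 0.46 had 95% intervals from -0.97 to 0.86 and from -0.95 to 0.93. All 5 members were below 0 between the ketogenic and high-fat diets, with a median of -0.18 beside 0.01 for all genes, and 0 of them were called.

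**Figure D3:**
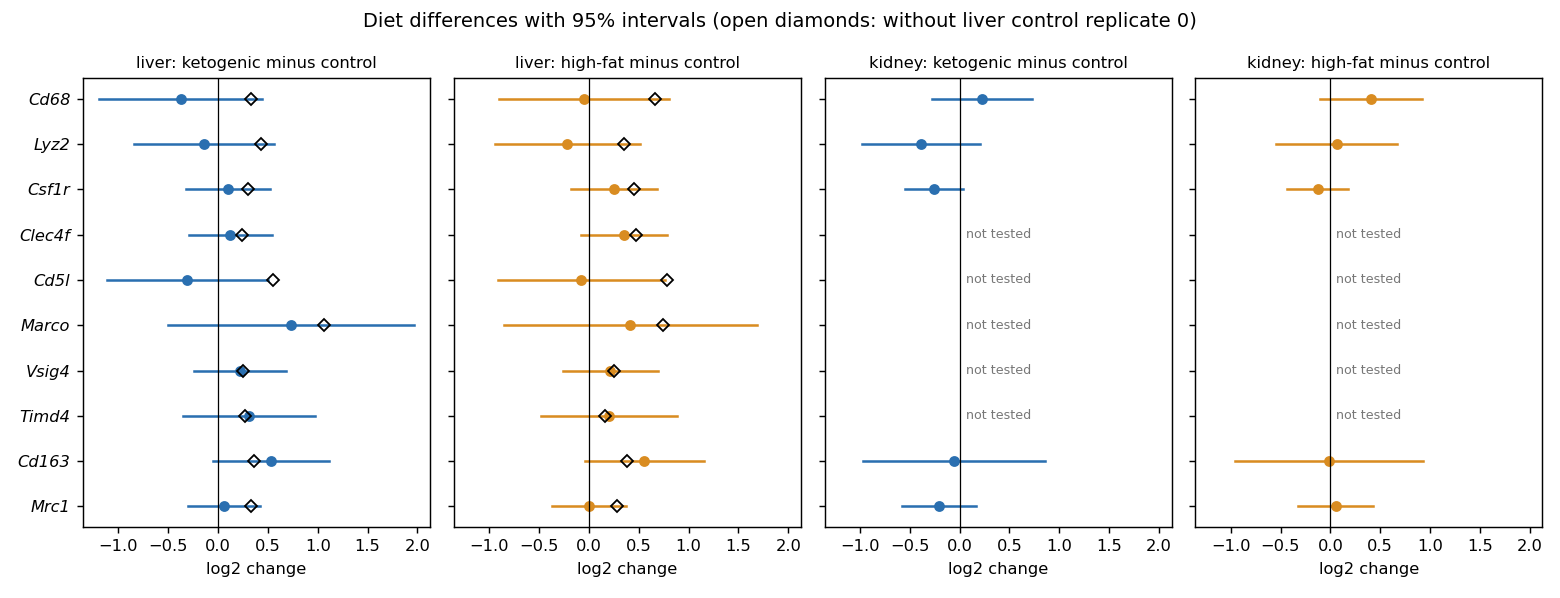
Log2 change from control (dots) with 95% intervals of edgeR's quasi-likelihood fit for each gene, in liver and kidney on the ketogenic and high-fat diets. Every interval crosses 0, and without liver control replicate 0 (open diamonds) Cd68, Lyz2 and Cd5l move from below 0 to above it in liver.

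Whether the response differed between tissues was tested for the 5 genes read in both, as the liver change minus the kidney change. The fit takes liver and kidney libraries as independent. The labels name no animals, so both tissues may come from the same mice, and the SE and p do not allow for that. Among 15430 genes, 0 (0%) differed on the ketogenic and 2 (0.013%) on the high-fat diet, and 0 members did, nor did any of the 5 pass an unadjusted p under 0.05. The differences on the ketogenic diet were 0.63 ± 0.53 for Cd163, 0.40 ± 0.25 for Csf1r, 0.30 ± 0.24 for Mrc1, 0.29 ± 0.44 for Lyz2 and -0.54 ± 0.49 for Cd68 (log2 ± SE). Csf1r had the smallest unadjusted p of the 5 on both diets, 0.12 and 0.0996. Without liver control replicate 0 the ketogenic difference of Cd68 turned to 0.14, and those of Lyz2, Mrc1 and Csf1r grew to 0.83, 0.56 and 0.58, none of them called. The fit also holds the other 5 genes, whose kidney values near 0 leave nothing to compare.

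Within a diet, 7 of the liver markers varied together from library to library. After the mean of each diet was subtracted from log2 CPM, 20 of the 45 pairs of members correlated across the 18 liver libraries (adjusted p under 0.05 over the 45 pairs by Pearson's r and by Spearman's rho, each from 100000 permutations within diet). All 20 were positive, from r = 0.59 to 0.94, and they joined Cd5l, Lyz2, Cd68, Csf1r, Clec4f, Vsig4 and Mrc1, which form 21 pairs. An r at least as high as the lowest of the 20 was reached by 5.54% of the 89425251 pairs of all 13374 genes tested in liver, against 44.4% of the 45 member pairs, and 49.98% of all pairs were positive. The strongest was Lyz2 with Cd5l (r = 0.94, rho = 0.85, adjusted p = 0.0006 and 0.00144), followed by Clec4f with Vsig4 (r = 0.91, rho = 0.88, adjusted p = 0.000675 and 0.0012). Vsig4 with Mrc1 was the one pair of the 21 that missed (r = 0.47, adjusted p = 0.106).

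Marco, Timd4 and Cd163 stood outside this group. None of the 24 pairs that include one of them was called, and their r ran from -0.40 for Marco with Cd163 to 0.51 for Vsig4 with Cd163. Marco with Clec4f gave r = -0.08 and Marco with Vsig4 r = -0.20. Cd163 with Lyz2 gave r = -0.15 and with Cd68 r = -0.02, values that rest on control replicate 0. Without it they were 0.30 and 0.45, and Cd163 gave r = 0.66 with Vsig4 and 0.62 with Clec4f, which passed by Pearson's r (adjusted p = 0.0253 and 0.0441) but not by Spearman's rho (rho = 0.50 and 0.53, adjusted p = 0.0937 and 0.0791, all by permutation). The shared libraries, with their depth and makeup, underlie all of these pairs, and genes that share libraries are not independent.

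The group of 7 was then examined without the library that stood apart. Without control replicate 0, 17 of the 20 pairs were still called by both measures. The 3 lost were those of Mrc1 with Cd5l, Cd68 and Csf1r, and 1 other was called, Timd4 with Mrc1 (r = 0.70, rho = 0.65, adjusted p = 0.0152 and 0.0354). Lyz2 with Cd5l stayed at r = 0.89 and Clec4f with Vsig4 at 0.93. When the 2 libraries farthest from the median of the first gene were left out instead, 19 of the 20 pairs kept r above 0.5, and Cd68 with Mrc1 fell to 0.38. Leaving out any 1 liver library left 16 to 22 pairs called by Pearson's r, the fewest without high-fat replicate 5.

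The 5 genes tested in kidney showed no such pattern. Of 10 pairs 3 had a positive r, the range ran from -0.45 for Lyz2 with Cd163 to 0.42 for Lyz2 with Csf1r, and 0 were called by either measure. Unadjusted, none had a p under 0.05 either. The lowest r called in liver, 0.588, was reached by 0 of the 10 kidney member pairs. Of the 113605201 pairs of all 15074 genes tested in kidney, 4.22% reached it, and 50.24% were positive. With 10 pairs and so low a share, reaching it in 0 does not set the members apart from other kidney genes. Cd68 with Lyz2 gave r = 0.78 in liver and 0.03 in kidney, Cd68 with Csf1r 0.77 and -0.35, and Csf1r with Mrc1 0.65 and -0.19. The difference between tissues was not tested. Kidney libraries held at most 114 counts of Cd68, 118 of Mrc1 and 25 of Cd163, and the part of counting error in these low correlations was not tested.

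**Figure D4:**
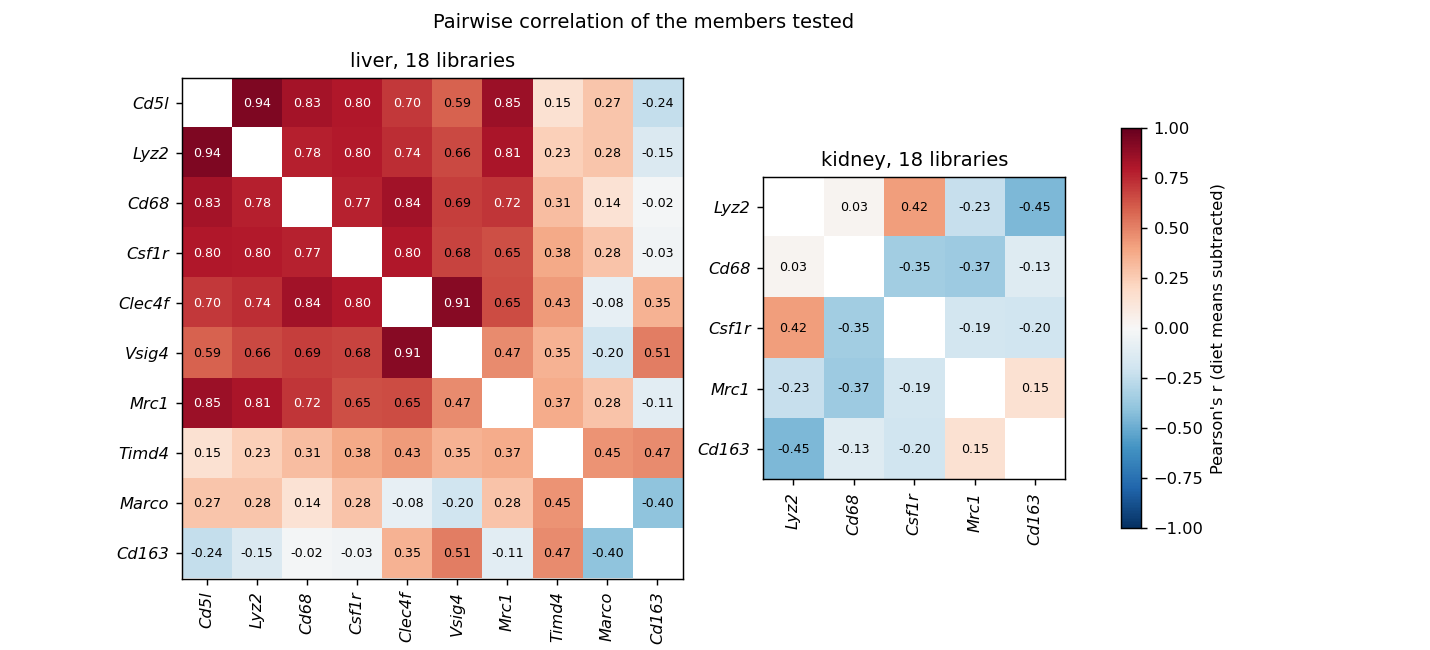
Pearson's r between members across 18 libraries of each tissue, with the mean of each diet subtracted from log2 CPM, in the 10 genes tested in liver and the 5 tested in kidney. In liver the block from Cd5l to Mrc1 runs from 0.47 to 0.94, while kidney values lie between -0.45 and 0.42.

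Outside the members, the liver genes with the highest mean r to the 10 were Adgre1 (0.65), which encodes the macrophage antigen F4/80, Ifi30 (0.63), a thiol reductase of antigen processing, Cd44 (0.63), a hyaluronan receptor, C1qb (0.63), a chain of complement C1q, St8sia4 (0.63), a sialyltransferase, Sdc3 (0.63), a syndecan, Emr4 (0.63), a relative of Adgre1, and Il18bp (0.62), which binds interleukin 18. The median gene of 13374 stood at -0.01, with 90% of genes between -0.40 and 0.40. These liver values include control replicate 0 and were not computed without it. In kidney, genes among the highest were D14Ertd668e (0.26), Herc6 (0.25), Ifit1 (0.25), Lepr (0.24), Casp12 (0.24), Snx14 (0.24) and Eif2c4 (0.24), over a median of 0.01, and no gene of the macrophage lists used here was among them.

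Further lists of the lineage gave no called gene in liver. Among 12 other Kupffer genes, all tested, 0 were called on either diet, and Clec1b, a lectin-like receptor, had the smallest p, with a log2 change of 0.65 ± 0.17 on the high-fat diet (unadjusted p = 0.00115, adjusted p = 0.68, edgeR) and -0.50 ± 0.16 between ketogenic and high-fat. Folr2, a folate receptor, stood at 0.69 ± 0.30 on the ketogenic diet (unadjusted p = 0.030, adjusted p = 0.48, edgeR). Of 13 genes of the Csf1r pathway and its transcription factors, 0 were called, and Id3, which in mouse is needed for Kupffer cell development, had the smallest p, at -0.996 ± 0.251 on the high-fat (adjusted p = 0.68, edgeR) and -0.87 ± 0.24 on the ketogenic diet (adjusted p = 0.25). Zeb2, a repressor with a part in macrophage identity, stood at 0.32 ± 0.14 on the high-fat diet (adjusted p = 0.68, edgeR). Without control replicate 0, Clec1b stood at 0.64 ± 0.18 and Zeb2 at 0.31 ± 0.15 on the high-fat diet and Folr2 at 0.69 ± 0.31 on the ketogenic diet. Id3 then stood at -0.79 ± 0.24 and -0.66 ± 0.23. Of the 12 other Kupffer genes, 4 were above 0 on the ketogenic diet with all libraries and 11 without that one, the median going from -0.08 to 0.26, and 0 were called.

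The 18 general macrophage genes, some of them shared by other leukocytes, were all tested in liver. On the ketogenic diet 13 of them were below 0 with a median of -0.33, a direction that rests on control replicate 0. Their summed level was 320.9 CPM in that library, 76.7 to 108.8 CPM in the other 4 controls and 80.3 to 150.7 CPM on the ketogenic diet. That library was the highest for this list and for the other Kupffer genes, so leaving it out raises both by construction. Without that library 17 of the 18 were above 0 on the ketogenic diet, with a median of 0.31, and all 18 on the high-fat diet, with a median of 0.51, beside 0.00 and -0.01 for all genes, and 0 were called. With all libraries, Fcgr1, an Fc receptor (-1.54 ± 0.64), and Mpeg1, a pore-forming protein of phagocytes (-0.99 ± 0.46), had the smallest p on the ketogenic diet (adjusted p = 0.48 and 0.51, edgeR), and they stood at 0.12 ± 0.45 and 0.18 ± 0.25 without that library. Of 18 activation genes 9 were tested in liver and 0 called, with Ccl5, a chemokine, at -2.46 ± 0.72 on the ketogenic (adjusted p = 0.30, edgeR) and Nlrp3, an inflammasome sensor, at 1.56 ± 0.68 on the high-fat diet (adjusted p = 0.68). They stood at -0.62 ± 0.54 and 1.24 ± 0.63 without control replicate 0. Of 10 scavenger receptors 8 were tested, and Stab2, a hyaluronan receptor of sinusoidal endothelium, stood at 0.42 ± 0.18 and 0.41 ± 0.19 on the ketogenic and high-fat diets (adjusted p = 0.49 and 0.68, edgeR), and at 0.37 ± 0.19 and 0.36 ± 0.20 without that library. All 6 monocyte genes tested were below 0 on the ketogenic diet, with a median of -0.43, and 0 were called. Without control replicate 0, 4 of the 6 were below 0, with a median of -0.09.

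In kidney, where 10 of the 12 other Kupffer genes and all 18 general macrophage genes were tested, 0 were called on either diet. Fcna, a ficolin, and Cxcl13, a chemokine, the 2 not tested, had 83 and 115 counts over 18 libraries against 6209 and 605 in liver. Hmox1, which breaks down haem, stood at 0.49 ± 0.16 on the ketogenic diet (unadjusted p = 0.00448, adjusted p = 0.30, edgeR), Ms4a7 at 0.62 ± 0.23 on the high-fat diet (adjusted p = 0.75) and Msr1, a scavenger receptor, at -0.80 ± 0.33 on the ketogenic diet (adjusted p = 0.48). Stab2 stood at 1.13 ± 0.36 on the high-fat diet (adjusted p = 0.60, edgeR). Between the ketogenic and high-fat diets 15 of 18 macrophage genes were below 0, with a median of -0.28 beside 0.01 for all genes, Adgre1 having the smallest p (-0.51 ± 0.22, unadjusted p = 0.024, adjusted p above 0.99, edgeR). In the same comparison 10 of 11 dendritic cell and antigen-presentation genes and 7 of 7 adipocyte genes were below 0, with medians of -0.21 and -1.02. The part of other cell types in it was not tested. In liver this comparison also had 15 of 18 macrophage genes below 0 (median -0.17) and 9 of 12 other Kupffer genes (median -0.15). There the members were split, with 5 above and 5 below 0, and 8 of 13 genes of the Csf1r pathway were above 0. Summed over the list in kidney, macrophage genes ran from 126 to 183 CPM in the controls, 126 to 158 on the high-fat and 112 to 158 on the ketogenic diet. The 3 ranges overlapped.

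The authors' deposited table gave no member a false discovery rate under 0.05 in either tissue. Its smallest value for a member in liver was 0.529, for Cd163 between the control and ketogenic diets, and in kidney 0.76, for Csf1r. By the authors' deposited table, the number of liver genes under 0.05 was 231 between the control and ketogenic diets, 87 between control and high-fat and 226 between high-fat and ketogenic, where edgeR's quasi-likelihood test here called 0 in each. For kidney, the authors' deposited table has 8, 1 and 0 genes under 0.05 in the same order, where edgeR here called 49, 2 and 7.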

How the data were processed

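RNA of whole liver and kidney was sequenced in 18 libraries per tissue. The authors deposited 1 table per tissue with raw read counts for each gene and library, named by Ensembl ID in the headers. The kidney columns are handled in the class of estimated counts, but as deposited by the authors they are whole numbers and none was rounded. The tables also hold gene lengths, and the authors' p-values and false discovery rates were deposited beside the counts and used for comparison only. Per the submitters' processing notes, the tools were edgeR, DESeq, featureCounts, Subread and TopHat2 2.0.11 and the build mm9, with no role given for each; whether counting used strand is not given in the sources used here. Another 36 liver and 54 kidney columns of per-sample values were not used. Amplification of cDNA started from random and poly-T primers, per the labels' protocols, and 18 barcoded samples ran in pools over 4 lanes. Neither the pools nor separate animals are named in the labels, so p-values measure the spread between these libraries.

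In R 4.3.3, edgeR 4.0.16 kept genes by filterByExpr (minimum count 10, by diet), scaled by TMM with mitochondrial genes kept, and fitted a robust quasi-likelihood model with diet as the only term to all 18 libraries of a tissue. P-values were adjusted over all genes tested, at 0.05, and each ± beside a log2 change is its standard error. The tissue difference was fitted over all 36 libraries, taken as independent. Correlations used log2 CPM with a prior count of 2, numpy 2.4.6 and scipy 1.17.1, and the smallest p printed is 1e-04. Alternatives used DESeq2 1.42.0, limma 3.58.1 voom, other scalings and filters, 2 diets alone, a replicate block, and each library left out. Scripts were tested on simulated data. The members and lists were chosen with earlier results of these data known. Leaving out single libraries for the correlations, and control replicate 0 for the control levels and the other lists, was added after seeing the data. The rule for named genes took all members, up to 2 genes of each described list with the smallest p, or up to 4 called, and the 8 most alike genes per tissue, of which 1 in kidney is not reported here. Older symbols were matched by Ensembl ID. Promoters and transcripts are of GRCm38, and no coordinates of the tables' build were mixed with them.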

Additional observations from a re-analysis of the deposited data

Results flagged for a closer look

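Of the 45 sets of one gene, tissue and diet, 5 held a library far from the others for the size of the set, where chance gives about 1 in 20. In liver control replicate 0, Cd5l was 78.2 CPM with the next control at 19.98, Cd68 was 23.2 with the next at 6.45, and Mrc1 was 46.7 with the next at 25.1. In the liver of ketogenic replicate 0, Cd163 was 2.73 CPM with the next ketogenic library at 5.715. That library was the lowest of 18 for Cd68, Clec4f, Vsig4 and Timd4, at 0.277, 0.465, 0.492 and 0.414 times the median of the others, and for the summed hepatocyte genes, at 0.767 times. In the kidney of high-fat replicate 3, Mrc1 was 1.31 CPM with the next at 2.43.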

How the results depend on the processing

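The count of members called was 0 in all 6 diet comparisons and both tissue differences, under every alternative run. The 126 of 2057 log2 changes of members that changed sign were uncalled in both settings. Changes moved by more than 1 SE in 22 cases, of which 8 were those of Cd5l, Cd68, Lyz2 and Mrc1 in liver without control replicate 0. Without normalization factors the median of all genes shifted to -0.13 between ketogenic and control and -0.17 between ketogenic and high-fat in liver, and Mrc1 stood at -0.08 in the first, against 0.06 with TMM. Pairs of liver members called by both measures numbered 20 with TMM, 21 without normalization factors, and 16 to 21 with 1 library left out. The last alternative was chosen after seeing the data. Without mitochondrial genes all 45 mean levels moved beyond 1 SD, by the construction of CPM. Counts over all genes varied more: in the order ketogenic against control, high-fat against control and ketogenic against high-fat, DESeq2 called 76, 1 and 1 in liver and 105, 15 and 30 in kidney, against 0, 0 and 0 and 49, 2 and 7. With single libraries left out the first comparison gave 0 to 22 genes in liver (22 without control replicate 4) and 21 to 56 in kidney (21 without control replicate 3), and without normalization factors 18 in kidney. The labels do not say that a replicate number pairs libraries. Same-numbered libraries of different diets had a median r of deviations of 0.05 over 16 liver pairs and of 0.11 over 16 kidney pairs. Over the 91 pairs with different numbers in each tissue it was 0.01 and -0.03. An r over 0.1 was reached by 7 of 16 same-numbered liver pairs against 20 of 91 others, and in kidney by 9 of 16 against 26 of 91. The lowest same-number r was -0.21 in liver and -0.22 in kidney, against -0.43 and -0.48 for different numbers. The kidney headers number the libraries in a single series across the diets, and the title numbers follow the order of that series within each diet. As the labels name no pairing, the title numbers were not taken as pairs, and whether they mark a shared source was not settled. With the replicate block, 0 members and 81, 0 and 0 liver and 55, 4 and 3 kidney genes were called. In liver Marco, Timd4 and Cd163 had the fewest counts of the members, 1807, 2257 and 2808 over 18 libraries. The part of depth in their spread was not tested. Depth limits the 5 near-absent kidney genes.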
